A study of Mus musculus with 14 samples.

Results

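Peaks of methylated DNA were examined at 10 epithelial genes that are switched on when fibroblasts pass through a mesenchymal-epithelial transition on the way to pluripotency. The genes were Cdh1 and Epcam (cell adhesion), Ocln, Cldn3, Cldn4, Cldn6 and Cldn7 (tight junctions), Esrp1 (epithelial splicing), and Krt8 and Krt18 (keratins). They were chosen by name from 22225 annotated protein-coding genes. A peak belonged to a gene when it overlapped the gene or the 2 kb on either side by at least 1 bp, on the mouse genome build NCBI37 (mm9). Within this window the promoter, taken as 1 kb on each side of the annotated start, and the rest of the gene, called the gene body, were read apart. All 10 genes had at least 1 peak in at least 1 sample, and their windows held 38 of the 151119 regions obtained by merging the overlapping peaks of all samples.

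The data came from MBD-seq. In this assay a methyl-CpG binding domain protein pulls methylated fragments out of sonicated DNA for sequencing, so that a peak of tags marks a stretch rich in methylated CpG. There were 14 samples, namely 3 Aid+/+ mouse embryonic fibroblast (MEF) cultures, 3 lines of ES cells and 8 iPS cell clones, 4 each of the genotypes Aid+/+ and Aid-/-, and Aid is a cytidine deaminase that has been proposed to take part in DNA demethylation. Both sets of iPS cells carried the Nanog-GFP reporter, were male, were of mixed C57BL6, DBA and 129S4 background, were used at passage 6, and had been made from MEFs by retroviral transfer of Oct3/4, Klf4 and Sox2, in some cases together with c-Myc. Each iPS sample is 1 clone. Within each genotype the clones' titles share their opening number and letter in pairs, and the tests below took each clone as independent. In the Aid-/- clones the Aid gene is disrupted. The MEFs, taken at passage 3, also carried Nanog-GFP, were male and of the same mixed background, and came from individual embryos. The ES lines were RF8 (129SV, passage 19), MG1.19 (129Ola) and a C57BL6 line, here ES replicates 1, 2 and 3. The labels do not state their Aid genotype.

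During reprogramming, fibroblasts lose their mesenchymal programme and take on epithelial junctions early, and E-cadherin, the product of Cdh1, holds ES cell colonies together. Repressors of the Snail and Zeb families bind E-box motifs in the Cdh1 promoter and keep it silent in mesenchymal cells. Methylation of a CpG-rich promoter goes with stable silencing, whereas methylation inside the body of a gene is found in transcribed genes as well, which is why promoter and body were kept apart.

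The captured sequence of the regions on which the results turn is shown here as the 200 bases around the median peak summit, read 5′ to 3′ in the direction of the gene from the NCBI37 genome. Capitals mark the CpG dinucleotides, the sites that the capture protein recognizes when methylated. The Epcam stretch (chr17:88039699-88039898, plus strand, in a coding exon) carried the strongest MEF excess in tag counts, and the Cldn4 stretch (chr5:135422023-135422222, minus strand, coding) carried the only promoter difference that passed a test. The Cdh1 stretches at +45.8 kb (chr8:109172902-109173101) and +61.0 kb (chr8:109188133-109188332), both on the plus strand and coding, were a region shared by all samples and one with no peak in any MEF. The Esrp1 stretch (chr4:11269457-11269656, minus strand, in an exon of a transcript without coding sequence) was shared by all samples. The Krt8 stretch (chr15:101828793-101828992, minus strand, coding) lay in a region with a peak in every iPS clone and ES line but not in every MEF.
Epcam +4.5 kb: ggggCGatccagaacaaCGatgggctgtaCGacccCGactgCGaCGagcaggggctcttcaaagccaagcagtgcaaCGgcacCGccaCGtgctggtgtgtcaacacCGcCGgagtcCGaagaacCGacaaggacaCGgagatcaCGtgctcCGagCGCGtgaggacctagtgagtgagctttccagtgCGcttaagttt
Cldn4 +0.7 kb: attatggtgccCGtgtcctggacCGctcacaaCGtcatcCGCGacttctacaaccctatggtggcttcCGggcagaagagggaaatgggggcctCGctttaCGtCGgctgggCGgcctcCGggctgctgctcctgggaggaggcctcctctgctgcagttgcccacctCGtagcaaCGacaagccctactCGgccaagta
Cdh1 +45.8 kb: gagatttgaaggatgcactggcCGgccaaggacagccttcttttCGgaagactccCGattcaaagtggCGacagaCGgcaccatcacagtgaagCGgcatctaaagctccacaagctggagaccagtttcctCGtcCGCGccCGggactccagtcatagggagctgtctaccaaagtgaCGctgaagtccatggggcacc
Cdh1 +61.0 kb: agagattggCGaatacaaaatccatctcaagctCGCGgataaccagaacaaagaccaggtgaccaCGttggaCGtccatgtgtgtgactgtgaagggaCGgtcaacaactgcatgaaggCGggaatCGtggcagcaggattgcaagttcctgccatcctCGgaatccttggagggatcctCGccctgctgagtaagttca
Esrp1 +44.4 kb: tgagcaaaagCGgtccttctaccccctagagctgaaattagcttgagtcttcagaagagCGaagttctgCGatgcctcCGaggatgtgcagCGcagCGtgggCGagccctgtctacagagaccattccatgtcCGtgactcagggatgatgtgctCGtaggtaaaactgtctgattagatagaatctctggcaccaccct
Krt8 +5.9 kb: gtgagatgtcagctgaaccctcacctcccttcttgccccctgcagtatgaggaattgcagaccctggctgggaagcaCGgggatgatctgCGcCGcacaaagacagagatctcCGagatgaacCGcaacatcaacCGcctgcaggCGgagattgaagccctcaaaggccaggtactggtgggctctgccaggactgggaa

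These stretches differed in CpG content. The Epcam stretch held 19 CpG in its 200 bases and the Cldn4 stretch 14, against 11 and 10 in the Cdh1 stretches, 9 in Esrp1 and 7 in Krt8. Over the whole merged regions, Cldn4 had 4.31 CpG per 100 bp and Epcam 3.47, which placed them at the 96.8th and 93.0th percentile of all 151119 regions. The Cdh1 region at +45.8 kb had 2.47 CpG per 100 bp, near the median of 2.41 over the 38 member regions and 2.22 over all regions.

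The Cdh1 promoter is printed for its E-boxes, since it is the target of the repressors named above. The 200 bases before the annotated start (chr8:109127051-109127250, plus strand) are given with each match to CAGGTG or its reverse complement CACCTG in capitals.
Cdh1 upstream: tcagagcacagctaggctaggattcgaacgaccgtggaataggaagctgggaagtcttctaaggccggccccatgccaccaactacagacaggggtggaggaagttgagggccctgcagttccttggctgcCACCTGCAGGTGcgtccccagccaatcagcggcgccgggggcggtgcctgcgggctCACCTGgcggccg

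There were 3 matches in this stretch, at 69, 63 and 13 bases before the start, and the first pair abutted. The letters CAGGTG, searched on both strands in the 300 bases before the start, were present in 7 of the 10 genes, namely Cdh1, Epcam, Cldn4, Cldn6, Esrp1, Krt8 and Krt18, and in 20.3% of all 22225 promoters. Over the 2 kb around the start the members were a little richer in CpG than the genome. They held 56 (Krt8) to 117 (Ocln) CpG against a median of 61 over all genes, and their GC content was 53.8% to 60.5% against a median of 51.1%.

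The libraries differed in depth and in how much of it fell in peaks, and both bear on the values below. Total tags ranged from 20.1 to 36.9 M (M, 1000000 tags) and tags left after the filter on duplicates from 6.65 to 19.6 M. Of the filtered tags, the share inside peaks was 48.6% to 61.6% in the iPS clones, 32.1%, 16.4% and 53.8% in ES replicates 1, 2 and 3, and 18.9% to 27.0% in the MEFs. The share of all genes with a peak in their window was 58.7% to 67.3% in iPS cells, 32.7% to 68.6% in ES cells and 42.1% to 55.0% in MEFs, and ES replicate 2 stood apart with the fewest peaks. The file headers showed 4 combinations of peak-caller version and run name, which are called runs A to D. Whether these were runs of sequencing or of peak calling alone is not given in the sources used here. The Aid+/+ iPS clones belonged to run A (replicate 1) and run B (the other 3), the Aid-/- clones to run A (replicates 1, 2 and 4) and run C (replicate 3), the ES lines to run C, and the MEFs to run C (replicate 1) and run D (the other 2). Cell identity was read from promoter peaks. Of 7 pluripotency genes the MEFs had a peak at Zfp42 in 3 of 3 cultures, Nanog in 2, and Dppa5a and Tdgf1 in 1 each. The iPS clones and ES lines had none at these 4. Pou5f1, which encodes Oct3/4, had one in 8 of 8 iPS clones and in no ES line or MEF. By pyrosequencing, the authors found the promoter of this gene hypomethylated in iPS cells of both genotypes. The promoter zone used here also covers 1 kb after the start, so the Pou5f1 peak does not show methylation before the start. Whether tags from the retroviral Oct3/4 contributed to it was not tested. Of 6 fibroblast genes the MEFs had a promoter peak at none, and Col1a1 had one in 8 of 8 iPS clones.

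Across the samples, 244 peaks lay in the windows of the 10 genes, 166 of them in iPS cells, 42 in ES cells and 36 in MEFs. They held 11 to 358 tags, with a fold enrichment over local background of 4.29 to 40.95. Members with a peak numbered 10, 6, 6 and 7 in the Aid+/+ clones, 9, 9, 8 and 10 in the Aid-/- clones, 6, 4 and 9 in the ES lines, and 7, 8 and 6 in the MEFs. Of the 38 regions, 16 had their summit in a coding exon, 9 in an intron, 4 in an exon of an untranslated region, 1 in an exon of a noncoding transcript, 5 upstream and 3 downstream.

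**Figure D1:**
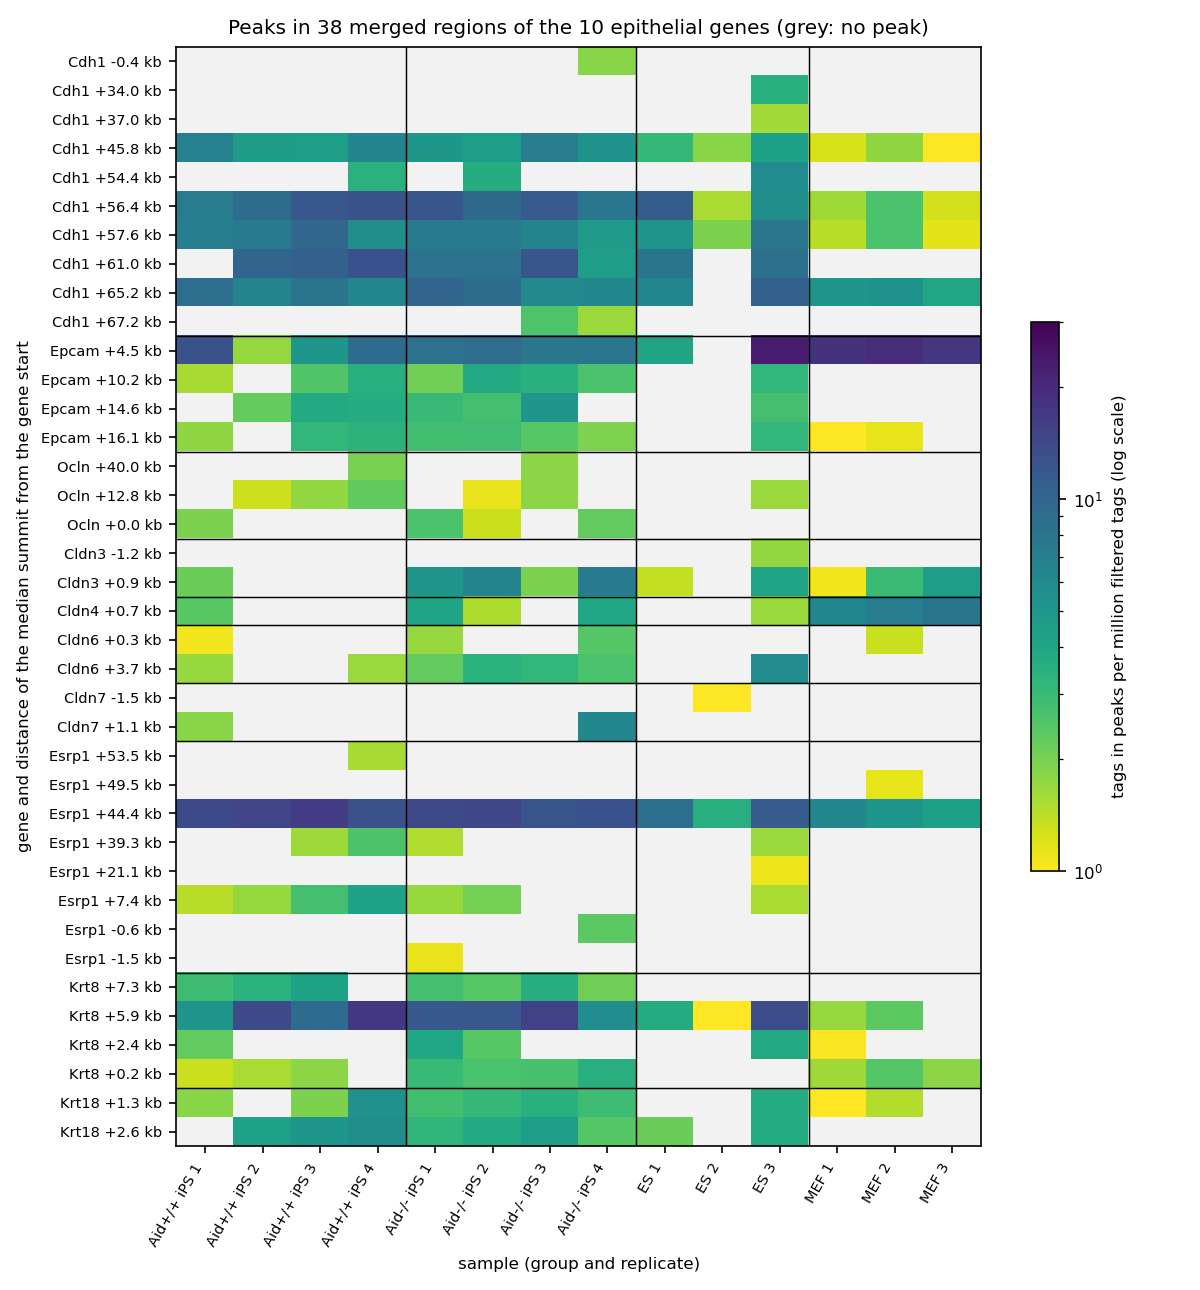
Tags in peaks per M (1000000) filtered tags (colour, log scale, grey where no peak was called) in the 38 merged regions of the 10 genes (rows, named by the distance in kb of the median summit from the gene start) and 14 samples (columns). Of the rows, 32 are coloured in at least 1 iPS clone and 7 in all iPS clones. The 23 regions with no MEF peak include 0 that are coloured in all iPS clones. Epcam +4.5 kb and Cldn4 +0.7 kb are darker in the 3 MEFs than in every iPS clone.

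The pattern of presence over samples was close to that of the genome for MEFs and less uniform for iPS cells. No MEF had a peak in 23 of the 38 regions (60.5%), against 58% of all regions. All 3 MEFs had one in 9 (23.7%), against 19.1%. All 8 iPS clones had one in 7 (18.4%), against 32.9%, and none of the 38 was present in all iPS clones and absent from all MEFs, against 6.29% of all regions. In all 14 samples a peak was present in 4 regions (10.5%), against 10.2%, and 10 regions (26.3%) held a peak of 1 sample, against 22%.

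The first comparison was of MEFs with iPS cells. The MEFs were Aid+/+, while the iPS clones were of both genotypes. The paper made the Aid-/- clones from Aid-/- MEFs, which are not among the samples, so the MEFs stand for the starting cells of the Aid+/+ clones alone. The level of a gene is given as the tags in its peaks per 1000000 filtered tags (per M below), with 0 where no peak was called. Cdh1, Krt8, Esrp1, Krt18 and Ocln carried fewer peak tags in MEFs than in iPS cells, and Cldn4 carried more. These 6 of the 10 genes passed an exact two-sided permutation test over samples (p = 0.00606 for each, the smallest that 3 against 8 samples allow, BH adjusted p = 0.0131 over 16702 genes). The test took the 8 clones as independent, and a likeness within the pairs of clones would make these p-values too small. Of all 16702 genes tested, 6.34% were higher in MEFs and 51.3% lower, so 5 members lower and 1 higher was near what the genome showed. The median difference was -2.29 tags per M over the members and -3.82 over all genes. With the Aid+/+ clones alone, 0 members and 0% of all genes passed the permutation test. No gene of the genome passed the Fisher exact test on the presence of a peak after adjustment, 0% of 16702, although 1275 genes had an unadjusted p under 0.05.

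**Figure D2:**
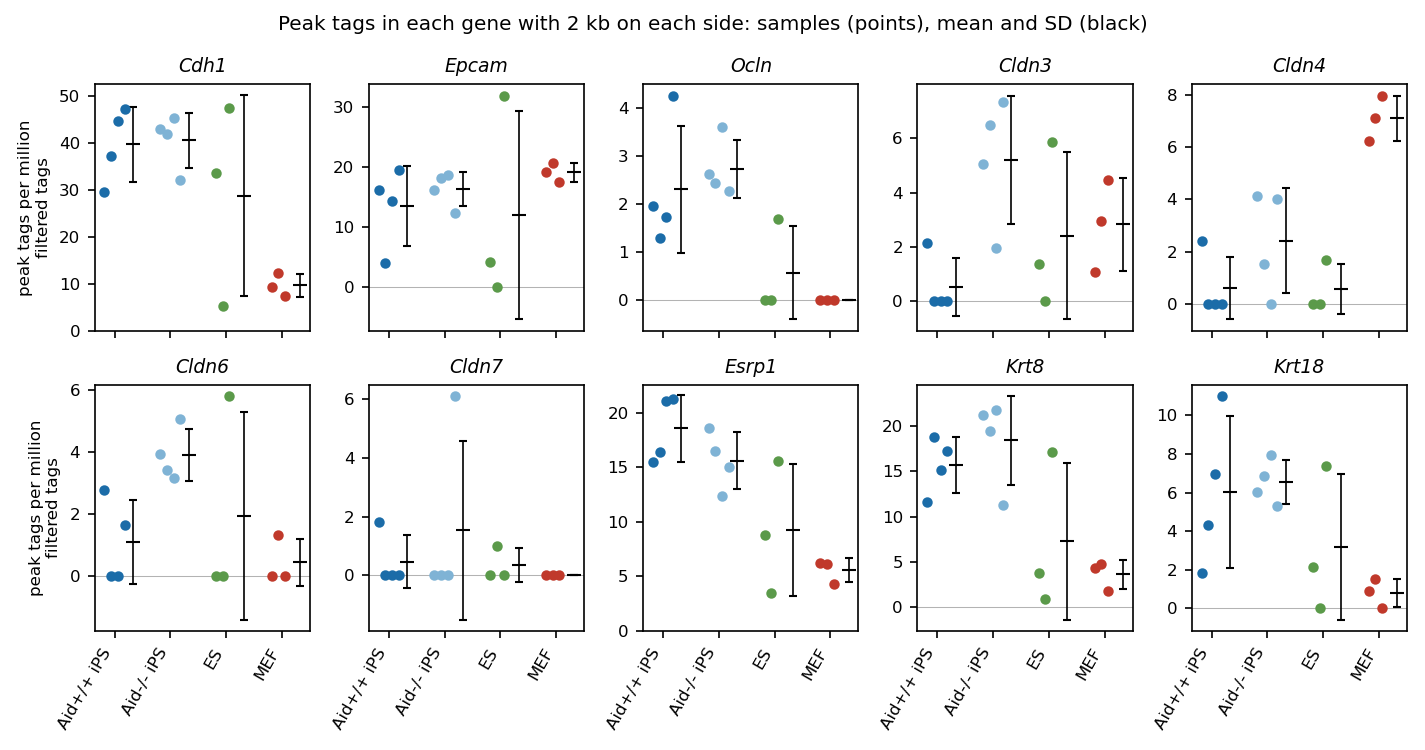
Peak tags per M filtered tags (y axis, each panel with its own scale) in the window of each of the 10 genes by group, with 1 point per sample and the mean and SD in black. The 3 MEFs lie below all 8 iPS clones for Cdh1, Ocln, Esrp1, Krt8 and Krt18 and above all of them for Cldn4, and the ES lines spread widely, with replicate 2 low and replicate 3 high.

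Cdh1 (ENSMUSG00000000303.6, chr8:109127251-109194146, plus strand) encodes E-cadherin, the adhesion molecule of adherens junctions. Its window held 29.6 tags per M in the lowest iPS clone, 42.5 at the median and 47.3 in the highest, 33.6, 5.32 and 47.5 in the ES lines, and 9.34, 12.2 and 7.36 in the MEFs. The MEFs all lay below every iPS clone, with 9.64 ± 2.44 (SD, n = 3) against 40.2 ± 6.51 (SD, n = 8), a difference of -30.6. ES replicate 2 lay below the MEFs and the other 2 ES lines at or near the range of the iPS clones.

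Nearly all Cdh1 peaks lay far inside the gene. The promoter held a single peak, of 21 tags, in Aid-/- iPS replicate 4, and no peak in any MEF or ES line. From 45.8 to 65.2 kb after the start, 6 regions with their summits in coding exons followed each other, and those at +45.8, +56.4 and +57.6 kb were present in all 14 samples. At +45.8 kb the tag counts were 44 to 107 (median 55) in iPS clones, 32, 27 and 68 in ES lines and 24, 31 and 17 in MEFs. At +61.0 kb a peak was called in 7 of 8 iPS clones and in ES replicates 1 and 3, with 52 to 134 tags in the 7 clones, and in no MEF. At +65.2 kb, the last coding part of the gene, the MEFs held 99, 91 and 73 tags and the iPS clones 40 to 139, and ES replicate 2 held no peak. Per M filtered tags this region gave 5.05, 5.20 and 4.01 in MEFs, below every iPS clone (6.01 to 9.94).

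Epcam (chr17:88035319-88050446, plus strand) encodes the epithelial cell adhesion molecule, which is expressed on pluripotent cells as well. Its window held 3.96 tags per M in the lowest iPS clone, 16.2 at the median and 19.5 in the highest, 4.11, 0 and 31.8 in ES lines, and 19.1, 20.6 and 17.5 in MEFs. The groups overlapped and the difference of 4.16 did not pass (exact permutation p = 0.2). The layout within the gene differed between the groups. At +4.5 kb (chr17:88039223-88041067) the MEFs held 358, 341 and 319 tags, the iPS clones 20 to 204 (median 87.5), and the ES lines 42, 0 and 353. Per M filtered tags this region gave 18.3, 19.5 and 17.5 in MEFs, above every iPS clone (1.72 to 12.8). The regions at +10.2 and +14.6 kb had peaks in 7 and 6 iPS clones and in ES replicate 3, and in no MEF. The promoter of Epcam had no peak in any sample. In the gene body alone the MEFs were higher by 5.76 tags per M (exact permutation p = 0.0424, BH adjusted p = 0.0673), and without Aid+/+ iPS replicate 2, the clone with the lowest value, the adjusted p was 0.0451.

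**Figure D3:**
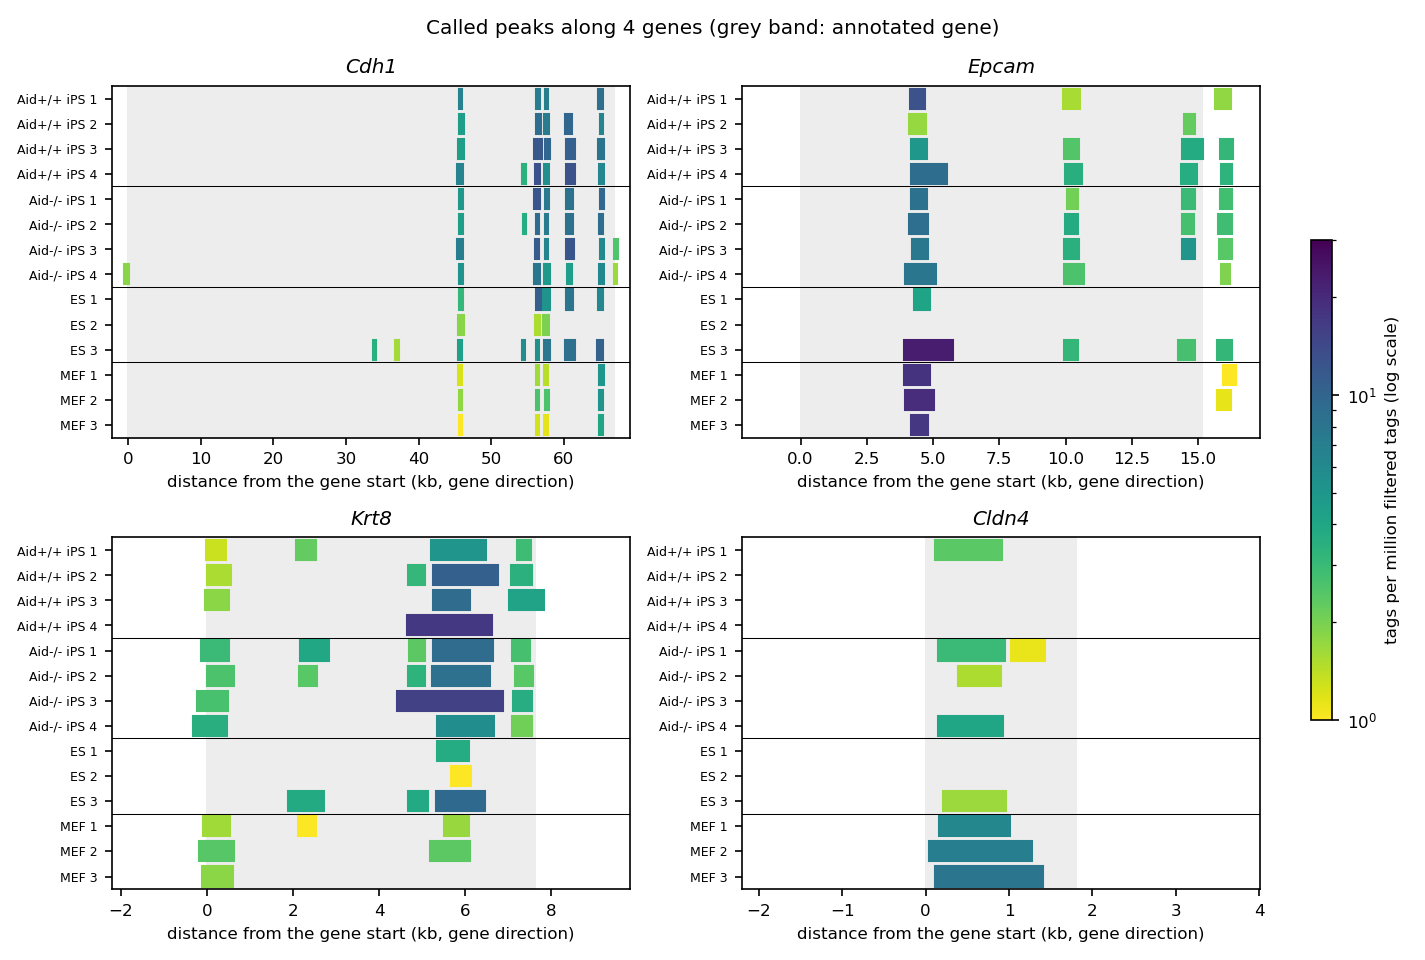
Called peaks along Cdh1, Epcam, Krt8 and Cldn4 in each sample (rows), drawn to scale against the distance in kb from the gene start (x axis), with the gene as a grey band and tags per M filtered tags as colour on a log scale. In Cdh1 the peaks cluster from 45.8 to 65.2 kb and the MEFs lack the one at 61.0 kb, in Epcam the MEFs keep the peak at 4.5 kb and lack those at 10.2 and 14.6 kb, and in Cldn4 the 3 MEF peaks run from near the start over the coding sequence.

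Ocln and the claudins make up the strands of tight junctions. Ocln (occludin, chr13:101266462-101322673, minus strand) held 1.29 tags per M in the lowest iPS clone, 2.35 at the median and 4.26 in the highest, 0, 0 and 1.68 in ES lines, and 0 in all 3 MEFs. Every iPS clone had an Ocln peak and no MEF did (8 of 8 against 0 of 3, Fisher exact p = 0.00606, BH adjusted p = 0.133), and the difference in tags was -2.52. The peaks were small and changed place between clones. The region at the start was called in 4 iPS clones (13 to 31 tags), that at +12.8 kb in 5 (11 to 22 tags) and in ES replicate 3, and that at +40.0 kb in 2.

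Cldn4 (chr5:135420996-135422804, minus strand, a single-exon gene) was the member with more tags in MEFs. Its window held 6.22, 7.14 and 7.96 tags per M in MEFs, 2.39, 0, 0 and 0 in Aid+/+ clones, 4.13, 1.52, 0 and 4.01 in Aid-/- clones and 0, 0 and 1.68 in ES lines. All MEFs lay above all iPS clones (7.11 ± 0.870, n = 3, against 1.51 ± 1.81, n = 8, a difference of 5.60). The single region behind this, chr5:135421373-135422764, began 40 bp after the annotated start and ran over the coding sequence. It held 122, 125 and 145 tags in MEFs, at most 46 in an iPS clone and 26 in ES replicate 3. Cldn4 was the 1 member of 9 tested whose promoter value passed (difference 5.74, exact permutation BH adjusted p = 0.0308 over 5068 genes), where 6.18% of all genes were higher in MEFs and 13.5% lower. The tags of a peak were counted whole in each zone it touched, and none of these peaks reached upstream of the start, so with the promoter taken as the 1 kb before the start Cldn4 had no promoter peak in any sample compared.

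No difference passed for the other claudins, whose groups overlapped. Cldn3 (chr5:135462084-135463342, plus strand) held 0 tags per M in the lowest iPS clone, 2.04 at the median and 7.33 in the highest, and 1.07, 2.97 and 4.45 in MEFs (exact permutation p = 0.976). Its main region overlaps the noncoding gene Wbscr25, and the tags cannot be divided between them. Cldn6 (chr17:23816332-23819413, plus strand), a claudin of early embryonic epithelium, held 0, 2.96 and 5.06 in the lowest, median and highest iPS clone and 0, 1.31 and 0 in MEFs (exact permutation p = 0.109, BH adjusted p = 0.152). In the iPS clones most of its tags lay in a region 3.7 kb after the start that is inside the neighbouring gene Cldn9. Cldn7 (chr11:69778281-69781387, plus strand) had peaks inside the gene in 2 iPS clones, of 29 and 70 tags, 1 peak upstream in ES replicate 2, and none in MEFs (exact permutation p = 0.782).

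Esrp1 (chr4:11259080-11313930, minus strand) encodes an RNA-binding protein that sets epithelial splice forms. Its window held 12.3 tags per M in the lowest iPS clone, 16.5 at the median and 21.3 in the highest, 8.80, 3.50 and 15.5 in ES lines, and 6.22, 6.17 and 4.34 in MEFs. The MEFs all lay below every iPS clone (5.58 ± 1.07, n = 3, against 17.1 ± 3.08, n = 8, a difference of -11.5). Most tags came from one region at +44.4 kb, present in all 14 samples, with 82 to 223 tags in iPS clones, 90, 52 and 174 in ES lines and 122, 88 and 79 in MEFs. This region also overlaps the noncoding gene Gm16652. The promoter had a peak in Aid-/- iPS replicate 4 and in no other sample.

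Krt8 and Krt18 encode the keratin pair of simple epithelia and lie next to each other on chromosome 15. Krt8 (chr15:101827142-101834773, minus strand) held 11.3 tags per M in the lowest iPS clone, 18.0 at the median and 21.8 in the highest, 3.72, 0.943 and 17.2 in ES lines, and 4.34, 4.80 and 1.81 in MEFs. The MEFs were below every iPS clone (3.65 ± 1.61, n = 3, against 17.0 ± 4.06, n = 8, a difference of -13.4), and 2 of the 3 ES lines were as low as the MEFs. Its 4 regions did not behave alike. At +5.9 kb the iPS clones held 65 to 166 tags, the ES lines 38, 14 and 207, and the MEFs 33, 41 and 0. At +7.3 kb 7 iPS clones and no other sample had a peak. At +0.2 kb, over the start, 7 iPS clones (18 to 40 tags) and all 3 MEFs (32, 43 and 33) had a peak and no ES line did.

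Krt18 (chr15:101858647-101862457, plus strand) held 1.82 tags per M in the lowest iPS clone, 6.44 at the median and 11 in the highest, 2.15, 0 and 7.36 in ES lines, and 0.867, 1.48 and 0 in MEFs. All MEFs lay below all iPS clones (0.784 ± 0.746, n = 3, against 6.28 ± 2.69, n = 8, a difference of -5.50). Without MEF replicate 3, the culture with no Krt18 peak, the adjusted p was 0.0825. The region at +2.6 kb was called in 7 iPS clones and 2 ES lines and in no MEF.

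The zones were then tested apart. For bodies, 5 of the 9 members with a body peak passed (Cdh1, Krt8, Esrp1 and Krt18 lower, Cldn4 higher, BH adjusted p = 0.0132 for each by the exact permutation test), where 5.62% of all 14672 genes were higher and 51.9% lower. Ocln, which passed over its whole window, passed neither in the body (exact permutation p = 0.2, adjusted p = 0.259) nor in the promoter (exact permutation p = 0.321, adjusted p = 0.651). The Cldn4 body value came from peaks whose summits lie in the promoter zone, and with the summit required inside the body the Cldn4 difference was -0.141. For promoters, Cldn4 alone passed. In MEFs no promoter peak was called at Cdh1, Epcam, Ocln, Cldn7, Esrp1 or Krt18, and peaks were called at Cldn3, Cldn4 and Krt8 in 3 of 3 cultures and at Cldn6 in 1. Of all promoters, 5.77% to 7.96% held a peak in the MEFs, so most promoters of the genome had none. A gene without a peak is not thereby unmethylated, since tags outside peaks are not in the lists. In these bulk samples, fewer methylated cells and less methylation per cell cannot be told apart. The paper also raises the possibility that the peak caller took small MEF peaks as background, which would change its sensitivity. This was not tested here.

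The levels of the 5 lower genes rose with the share of tags in peaks. That share was itself lower in every MEF (18.9% to 27.0%) than in every iPS clone (48.6% to 61.6%). These genes were named for being lower in MEFs, so a high correlation with the share over all samples is partly built in. Over the 14 samples, which share libraries and depth, Pearson's r with that share was 0.939 for Cdh1, 0.937 for Esrp1, 0.939 for Krt8, 0.879 for Krt18 and 0.859 for Ocln, against 0.283 for Epcam and -0.539 for Cldn4. With tags scaled per M tags in peaks, 6 members again passed, Cdh1, Krt8, Krt18 and Ocln lower and Cldn4 and Epcam higher. On that scale Epcam differed by 53.5 (adjusted p = 0.0182), Esrp1 had an adjusted p of 0.0627, and 17.5% of all genes were higher and 24.9% lower. With tags scaled per M total tags the split was also 2 higher and 4 lower, and with the same number of peaks kept in every sample 2 higher and 2 lower. In that last setting Krt8 (difference -3.21, adjusted p = 0.663) and Krt18 (-0.537, adjusted p = 1) no longer passed, and no Ocln peak was left to test. The 2 runs that hold MEFs hold a single iPS clone, in run C, so run and cell type can be set apart in 1 pair only. There MEF replicate 1 and Aid-/- iPS replicate 3 had 9.34 against 45.4 tags per M for Cdh1, 4.34 against 21.8 for Krt8, 6.22 against 12.3 for Esrp1 and 6.22 against 0 for Cldn4, in the directions seen over all samples and without replicates.

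Summed over the 10 genes, the peak tags were 82.0 to 122 per M in iPS clones, 53.8, 10.8 and 134 in ES lines, and 47.2, 56.7 and 43.4 in MEFs. Among the genes whose level was most like this sum over the 14 samples, by Pearson's r, were Tnk2 (0.983) and Avil (0.981), a description over samples that share their libraries.

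At regions where every compared sample had a peak, no count was missing, and tag counts were compared by edgeR's quasi-likelihood test with TMM scaling. The count of a sample was the tags of its own peaks in the region. Those peaks differed in width, so the counts did not cover the same interval in every sample. How far peak width enters the changes was not tested. Among 22468 such regions, 24.8% were higher in MEFs than in iPS cells and 26.4% lower, with a median log2 change of -0.07. Of the members' regions 6 qualified, and 5 passed. Epcam +4.5 kb was 5.67-fold higher in MEFs (log2 change 2.50 ± 0.31 SE, adjusted p = 4.39e-06). Cdh1 +56.4 kb was lower (log2 change -1.25 ± 0.23, adjusted p = 0.000386), as were Cdh1 +45.8 kb (-0.84 ± 0.25, adjusted p = 0.00961) and Cdh1 +57.6 kb (-0.79 ± 0.24, adjusted p = 0.0116). Cdh1 +65.2 kb was higher (0.55 ± 0.18, adjusted p = 0.0195), and Esrp1 +44.4 kb gave -0.20 ± 0.14 (adjusted p = 0.252).

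These calls depended on the scale. With filtered tags as the library size, which moves the median of all regions to -1.29, Cdh1 +65.2 kb turned to -0.68 (adjusted p = 0.00611), Esrp1 +44.4 kb went to -1.43 (adjusted p = 5.44e-07), and Epcam +4.5 kb stayed higher at 1.26 (adjusted p = 0.000335). On this scale 5.39% of all regions were higher and 82.5% lower. On the fold enrichment of the peaks (limma), Epcam +4.5 kb gave a log2 difference of 0.50 with an adjusted p of 0.105. Without MEF replicate 1 or without MEF replicate 3, Cdh1 +45.8 kb (adjusted p = 0.0655 and 0.111) and Cdh1 +57.6 kb (adjusted p = 0.0922 and 0.144) no longer passed.

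**Figure D4:**
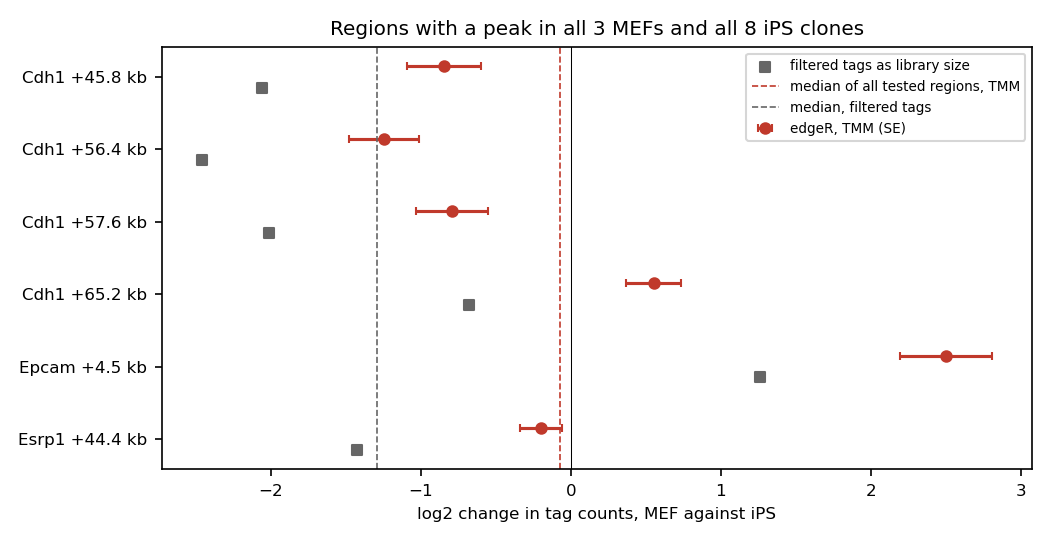
Log2 change in tag counts, MEF against iPS (x axis), for the 6 member regions with a peak in all 3 MEFs and all 8 iPS clones, by edgeR with TMM scaling (circles, bars are the SE) and with filtered tags as the library size (squares). Dashed lines are the medians of all 22468 regions under each scaling, at -0.07 and -1.29. Epcam +4.5 kb lies right of 0 on both scales, Cdh1 +45.8, +56.4 and +57.6 kb lie left of 0 on both, and Cdh1 +65.2 kb changes side.

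The second comparison was of MEFs with ES lines. With 3 against 3 samples no test can give an exact permutation p below 0.1, so 0% of 16103 genes could pass. Cldn4 was again higher in all 3 MEFs than in any ES line (7.11 ± 0.870 against 0.559 ± 0.968, exact permutation p = 0.1, adjusted p = 0.879), and so was the Krt8 promoter (1.97 ± 0.433 against 0, n = 3 each, exact permutation p = 0.1). For Cdh1 the groups overlapped (9.64 ± 2.44 against 28.8 ± 21.5, exact permutation p = 0.4). By edgeR at 15841 shared regions, 3.81% were higher in MEFs and 0.688% lower, and none of the 4 member regions passed. The 3 Cdh1 regions at +45.8, +56.4 and +57.6 kb had log2 changes of -0.61 ± 0.34, -1.0 ± 0.50 and -0.82 ± 0.40 (adjusted p = 0.304, 0.256 and 0.248), and each had an unadjusted p above 0.05.

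The third comparison was of ES lines with iPS clones. No gene of 16984 passed the exact permutation test after adjustment (0%), with 3671 genes at an unadjusted p under 0.05. Among the members Esrp1, Ocln and Krt8 had the lowest p (each 0.0242 by the exact permutation test, adjusted p = 0.204), with fewer tags in ES lines. Their differences were -7.79, -1.96 and -9.77 tags per M. The Krt8 start peak was absent from 3 of 3 ES lines and present in 7 of 8 iPS clones (Fisher exact p = 0.0242, adjusted p = 0.807). All 10 members had a lower mean in ES lines, as did 83.7% of all genes tested, and ES replicate 2 had 16.4% of its tags in peaks. By edgeR at 22938 shared regions, 0.667% were higher in ES lines and 0.693% lower, and none of 5 member regions passed, each with an unadjusted p above 0.05. At Krt8 +5.9 kb the log2 change was -0.39 ± 0.43 SE (adjusted p = 0.642), and without ES replicate 3 this region gave -1.45 (adjusted p = 0.0290). In that setting 13.6% of all regions were higher in ES lines and 12.7% lower.

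The last comparison, the main one of the study, was of Aid-/- with Aid+/+ iPS clones. No gene of 16387 passed the exact permutation test on tags or the Fisher exact test on presence after adjustment (0% each), and 262 genes had an unadjusted p under 0.05 by the permutation test and 15 by the Fisher exact test. Cdh1 held 40.6 ± 5.85 tags per M in Aid-/- and 39.8 ± 8.01 in Aid+/+ clones (n = 4 each, exact permutation p = 0.857), Epcam 16.4 ± 2.85 and 13.5 ± 6.71 (exact permutation p = 0.543), Krt18 6.54 ± 1.14 and 6.03 ± 3.93 (exact permutation p = 0.8), and Esrp1 15.6 ± 2.62 and 18.6 ± 3.05 (exact permutation p = 0.2). Cldn6 held 3.90 ± 0.840 and 1.11 ± 1.35, and the Krt8 promoter 2.96 ± 0.391 and 1.17 ± 0.803, each at the smallest p that 4 against 4 samples allow (exact permutation p = 0.0286, adjusted p = 1). Cldn3 had a peak in its gene body in 4 of 4 Aid-/- clones and 0 of 4 Aid+/+ clones (5.20 ± 2.36 against 0 tags per M, p = 0.0286 by the exact permutation test and by the Fisher exact test, adjusted p = 1 by each). Aid+/+ replicate 1 had a peak of 34 tags in the same merged region that did not reach the body zone, so over the whole window the counts were 4 of 4 against 1 of 4 (exact permutation p = 0.0571, adjusted p = 1). By edgeR, 0% of 49661 regions were higher in Aid-/- clones and 0.00201% lower, with 1782 regions at an unadjusted p under 0.05, and none of the 7 member regions passed. Their log2 changes ran from -0.13 ± 0.22 (Cdh1 +57.6 kb) to 0.20 ± 0.42 (Epcam +4.5 kb).

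The mean was higher in Aid-/- clones for 9 of 10 genes and for 9 of 9 promoters with a peak, where it was higher for 38.5% of all 16387 genes and 62.0% of all 4717 promoters. The median difference in whole windows was 1.44 tags per M over the members and -0.37 over all genes. The run moved with genotype. Promoter peaks were called at 7, 5, 4 and 9 members in the clones of run A (Aid+/+ replicate 1, then Aid-/- replicates 1, 2 and 4), at 1, 1 and 0 in run B (Aid+/+ replicates 2, 3 and 4), and at 2 in Aid-/- replicate 3 of run C. Of all promoters, 11.5% to 13.3% held a peak in the clones of run A, 8.12% to 10.5% in run B and 9.01% in the run C clone. A split in the same direction was seen over all promoters with a GC content of at least 60%, of which there were 2315. Of these, 9.72% to 19.1% held a peak in run A, 1.77% to 3.63% in run B and 3.15% in the run C clone. The other promoters differed less, with 11.3% to 12.7% in run A and 8.86% to 11.3% in run B. Of the members only Cldn3, at 60.5%, reached a GC content of 60%, and the rest belonged to these other promoters. The split of the GC-rich promoters therefore does not describe the class of most members. Aid+/+ replicate 1 is the single Aid+/+ clone of run A, so genotype could not be tested within a run. There it had 2.76 tags per M for Cldn6 against 3.94, 3.44 and 5.06 in the 3 Aid-/- clones, and 1.32 against 3.00, 2.63 and 3.49 for the Krt8 promoter. The numbers that open the clones' titles gave a second grouping, since Aid+/+ replicates 3 and 4 and Aid-/- replicates 1 and 2 share an experiment number. Among these 4 clones Cldn6 held 0 and 1.66 tags per M in Aid+/+ and 3.94 and 3.44 in Aid-/- clones, the Krt8 promoter 1.80 and 0 against 3.00 and 2.63, and the Cldn3 body 0 and 0 against 5.06 and 6.47. The pair of each genotype belonged to a different run, so genotype and run cannot be told apart within this experiment. Without the 3 clones of run B, MEFs against iPS cells gave 3 body calls in place of 5, with Krt8 and Krt18 lost. In that setting 4.98% of all gene bodies were higher in MEFs and 34.1% lower, and no promoter of the genome passed.

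**Figure D5:**
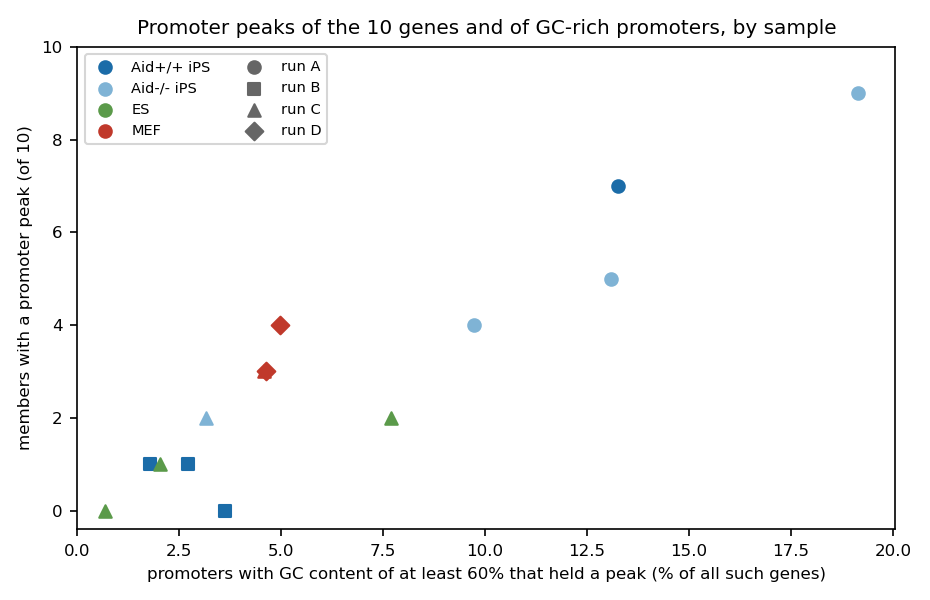
Number of the 10 genes with a promoter peak (y axis) against the share of the 2315 promoters with a GC content of at least 60% that held a peak (x axis, percent), 1 point per sample, coloured by group with the run as the symbol. The 4 clones of run A lie at the upper right (4 to 9 genes, 9.72% to 19.1%) and the 3 clones of run B at the lower left (0 or 1 gene, 1.77% to 3.63%). Of the 10 genes, only Cldn3 is among the 2315 promoters.

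Further epithelial genes were read as a longer list. Of 50 other genes of junctions, polarity, keratins and their regulators, 49 were annotated and 47 had a peak in an MEF or iPS sample. By the exact permutation test 1 of the 47 was higher in MEFs and 25 were lower, beside 6.34% and 51.3% of all genes, with a median difference of -4.98 tags per M beside -3.82 over all genes. The gene that was higher, named after its value was seen, was Tjp3, a scaffold of tight junctions (39.2 ± 4.78 tags per M in MEFs against 21.9 ± 5.78 in iPS clones, adjusted p = 0.0131 by the exact permutation test). Of 28 with a promoter peak, 2 were higher in MEFs and 2 lower, beside 6.18% and 13.5% of all promoters tested. Marveld2 (tricellulin, 9.09 ± 1.84 against 0) and Krt7 (7.70 ± 1.52 against 0.988 ± 1.88) were higher in MEFs, and Cldn8 (2.74 ± 0.965 against 13.6 ± 1.74) and Krt5 (0.324 ± 0.560 against 4.68 ± 0.390) were lower, all with an adjusted p of 0.0308 by the exact permutation test and all named after their values were seen.

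Repressors of Cdh1 and other mesenchymal regulators were read as a further list. Of 14 such genes, 11 had a peak, and 1 was higher in MEFs and 4 lower, beside 6.34% and 51.3% of all genes, with a median difference of -4.64 tags per M. The higher one was Gsc, a homeobox gene (12.8 ± 1.33 against 2.60 ± 2.70), and the lower ones were Snai1, a repressor of Cdh1 (1.59 ± 0.587 against 6.97 ± 1.84), Prrx1, Cdh2, which encodes N-cadherin, and Fn1, which encodes fibronectin, named after their values were seen. None of the 3 with a promoter peak passed.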

How the data were processed

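MBD-seq was carried out on 14 samples, grouped by their titles. Per the labels and the methods, DNA was sonicated, captured, sequenced as single 75 bp reads and mapped with BWA (0.5.9rc1) to mm9, and MACS (1.4.0rc2 or 1.4.1 per the file headers) called peaks in each sample without a control, at a cutoff of 1.00e-05 on the p-value and with at most 2 tags per position. CASAVA 1.8.1 is also named in the submitters' processing notes. For each peak the authors deposited a tag count, a score (-10 times log10 of the p-value) and the fold enrichment over local background, a ratio.

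Peaks were assigned to the GENCODE vM1 genes and zones of the same build, and a whole peak's tags were given to each zone it touched. Levels are tags per M (1000000) filtered tags, taken from the file headers. Presence was tested by Fisher's exact test and levels by an exact two-sided permutation test of the difference of means, with Benjamini-Hochberg (BH) adjustment over all genes with a peak in the zone in a sample compared. Peaks overlapping by at least 1 bp in any samples were merged, and tag counts at regions with a peak of every compared sample were tested in edgeR 4.0.16 with TMM. A sample's count at a region was the sum of the tags of its own peaks there. DESeq2 1.42.0 and limma 3.58.1 served as alternatives, beside other zones, scalings, peak cutoffs and left-out samples. R 4.3.3, Python 3.11.15, scipy 1.17.1 and matplotlib 3.10.9 were used. The tests were tested on simulated data.

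All 10 members are named whatever their values. Other epithelial genes were to be named where the presence test of the promoter passed, which none did. The members and lists were chosen with earlier results of these data known. Between any 2 samples at most 0.00115% of peaks were identical, so each counts as 1. ES and iPS replicate numbers follow the order of the samples. Counts cover tags within peaks, and no tag outside a peak was used. Sequences were read from the NCBI37 genome.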

Additional observations from a re-analysis of the deposited data

Results flagged for a closer look

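In the 52 groups of 4 clones that could be examined, 18 had a clone far from the other 3. In 17 of these the clone was the single one of its group with a peak, so the other 3 values were 0, and the rate of about 1 in 20 that chance gives for continuous values does not apply to them. The window, promoter and body of a gene also share peaks, so these are fewer than 17 separate patterns. Aid+/+ iPS replicate 1 alone had a peak in the window and promoter of Cldn3 (2.14 tags per M filtered tags) and of Cldn4 (2.39), in the window, promoter and body of Cldn7 (1.82), and in the promoters of Ocln (1.95), Cldn6 (1.07) and Krt18 (1.82). It is also the single Aid+/+ clone of run A. Aid-/- iPS replicate 4 alone had a peak in the window, promoter and body of Cldn7 (6.11) and in the promoters of Cdh1 (1.83), Esrp1 (2.36) and Krt18 (2.88). In the share of GC-rich promoters with a peak it was the highest of all samples, at 19.1%. Aid-/- iPS replicate 1 alone had a peak that reached the body of Cldn4 outside the promoter zone (1.13). The last value was the gene body of Cdh1, where Aid-/- iPS replicate 4 held 30.3 tags per M and the other 3 Aid-/- clones 42.1 to 42.9.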

How the results depend on the processing

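The numbers of members called were followed over 28 results and 429 alternative values, of which 411 were within 1.5 times the reported number and 18 were not. Many of the 411 belong to results with 0 calls in every setting, such as all those on peak presence and on genotype. For MEFs against ES lines no gene could pass the exact tests. Such values do not show how stable the other results are. For MEFs against iPS cells by peak tags, 6 members passed over whole windows and 3 on fold enrichment, where 4.15% of all genes were higher and 38.4% lower. With the Aid+/+ clones alone 0 passed, where the smallest exact permutation p is 0.0286 and no gene of the genome passed. Leaving out each replicate gave 5 to 6. Over promoters, 1 member passed, and 0 with the 1 kb upstream alone, on fold enrichment, with the Aid+/+ clones alone, without the run B clones and without any 1 of the MEF replicates (0 to 1 over all left-out replicates). With the Aid+/+ clones alone, without the run B clones or without an MEF replicate, no promoter of the genome passed. The loss of the Cldn4 call in those settings is therefore not particular to Cldn4. Over bodies, 5 passed (4 to 6 over left-out replicates). On fold enrichment 3 passed, beside 3.76% of all genes higher and 39.4% lower. Without the run B clones 3 passed, beside 4.98% higher and 34.1% lower. With the Aid+/+ clones alone 0 passed, and no gene of the genome did. For tag counts at regions, 5 passed, and 3 by limma on fold enrichment, 2 with peaks at p of at most 1e-10 and 3 without MEF replicate 1 (3 to 6 over left-out replicates). In that order, the shares of all regions higher and lower were 9.21% and 39.2%, 26.7% and 22.9%, and 21.2% and 18.9%. For ES lines against iPS clones 0 passed, and 1 with filtered tags as library size (Esrp1 +44.4 kb), 1 by limma (Cdh1 +45.8 kb) and 1 without ES replicate 3 (0 to 1 over left-out replicates). In that order, 25.4%, 3.68% and 12.7% of all regions were lower in ES lines, beside 0.693% in the main setting. The other comparisons stayed at 0 throughout. Of the 128 single genes and regions, 1993 of 2054 alternative values kept their call or stayed uncalled, 47 lost the call, 12 gained it and 2 turned. Those that turned were Cldn4 in the body zone when the peak summit had to lie inside it (-0.141 in place of 6.97, since the MEF summits lie in the promoter zone) and Cdh1 +65.2 kb with filtered tags as library size (-0.680). A change of sign counted as a turn only where the value was called in at least 1 of the 2 settings. Values called in neither could change sign without being counted, as Cldn3 did over its whole window (-0.04, and 0.635 per M total tags). The share of all genes higher and lower in MEFs moved from 6.34% and 51.3% to 10.7% and 29.3% per M total tags, 17.5% and 24.9% per M tags in peaks, and 13.2% and 35.7% with the same number of peaks in every sample. With total tags Epcam passed (6.95, adjusted p = 0.0199, exact permutation) and Esrp1 did not (adjusted p = 0.0957), and with p of at most 1e-10 Krt18 (adjusted p = 0.0770) and Ocln (0.844) did not. The run B and tags-in-peaks alternatives were chosen after seeing the data. The cause of these changes was otherwise not tested. No paired analysis by replicate number was possible because the labels give replicate numbers to the MEFs alone, and those of the iPS and ES samples only follow their order. With the experiment number of the iPS clones as a block in edgeR, also added after seeing the data, 0 of the 7 member regions and 0% of 49661 regions passed for genotype, with 3421 at an unadjusted p under 0.05. In this block only the 4 clones of the shared experiment bear on the difference, and their runs differ by genotype. Peaks of few tags limit what can be seen: a member without a peak may hold tags under the peak caller's cutoff.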
